A study of Arabidopsis thaliana with 8 samples.

Results

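The ag-10 fhy3-68 double mutant of Arabidopsis thaliana was set against the fhy3-68 single mutant, which gives the effect of ag-10 on transcript levels in inflorescences where FHY3 was already mutated. The comparison used 4 of the 8 libraries of the series, 2 per genotype, and every one of the 19853 genes in the deposited table. The fhy3-68 plants carried the fhy3-68 allele alone. The ag-10 fhy3-68 plants carried the ag-10 and fhy3-68 alleles together, so fhy3-68 was shared by all 4 libraries. The remaining 4 libraries, 2 of the Ler wild type (Landsberg erecta) and 2 of the ag-10 single mutant, give the effect of ag-10 with FHY3 intact and share no library with the comparison. Whether the mutant lines differ from Ler elsewhere in the genome was not tested, so each effect compares the lines as labelled. In every genotype the tissue was the inflorescence with flowers up to stage 8, and the series describes the 2 libraries of a genotype as biological replicates.

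AGAMOUS (AG) encodes a MADS-domain transcription factor that specifies stamens and carpels and ends stem cell activity in the centre of the flower, and ag-10 is a weak allele of it. FHY3 encodes a transcription factor derived from a transposase and is best known from phytochrome A signalling. In the young flower the homeodomain gene WUS keeps the stem cells, receptor proteins such as CLV1 and CLV2 restrain it, and combinations of MADS-domain proteins of the AP1, AP3, PI and SEP kind set organ identity.

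Each value is a normalised read count, that is, a gene's reads over a scaling factor for its library. They are not divided by gene length, so levels were compared between genotypes and never between genes. The 4 libraries held between 14091808 and 16816619 reads in listed genes. AG was not analysed here, so its own transcript gave no check of the ag-10 label. FHY3 mRNA stood at 70.48 and 93.00 in fhy3-68, then at 85.84 and 91.75 in ag-10 fhy3-68, against 103.38 and 109.81 in Ler, so reads of the gene were present in the mutants. The 10 markers of young flowers and meristems (AP1, AP3, PI, SEP3, LFY, UFO, WUS, STM, CUC1 and CUC2) were all detected in all 4 libraries. Of 6 markers of later flowers and nectaries, 2 were listed, and both were detected in all 4 libraries. AT5G44630 stood between 40.55 and 46.42 there and CWINV4 between 25.58 and 40.17. The summed level of 8 mature pollen genes was 85.44 and 27.24 in the fhy3-68 libraries and 117.84 and 22.71 in the double mutant, so it differed more between replicates than between genotypes. The fhy3-68 replicates lay furthest apart of the 4 genotypes, with 473 genes over 2-fold apart at a mean of at least 5, against 253 in the double mutant, 345 in ag-10 and 98 in Ler.

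No gene passed the limma test in ag-10 fhy3-68 against fhy3-68. With limma on log2(value + 0.5), fitted over all 8 libraries with Benjamini-Hochberg adjustment and a threshold of 0.05, 0 of 19853 genes were called (0%), and the smallest adjusted p was 0.9997. At an unadjusted limma p under 0.05 there were 427 genes (2.15%), of which 266 stood lower (1.34%) and 161 higher (0.811%) in the double mutant. On the recovered whole reads, the quasi-likelihood test of edgeR called 0 genes (453 at an unadjusted p under 0.05) and DESeq2 called 1, RHS14, at an adjusted p of 0.00501 (209 at an unadjusted p under 0.05). The 2 double mutant libraries lay apart from both fhy3-68 libraries in 4416 genes (22.2%), on the lower side in 2221 (11.2%) and on the higher side in 2195 (11.1%).

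The intervals say how large an uncalled difference could be, given a spread per gene pooled over all 4 genotypes. In genes with a mean of at least 5, the median log2 gap between replicates was 0.213 in fhy3-68. It was 0.121 in the double mutant, 0.119 in ag-10 and 0.097 in Ler. The pooled spread may thus be too small for fhy3-68, and the intervals here and below may be too narrow. The 95% interval of the fold change lay within 2-fold either way for 17584 genes (88.6%), and for 15214 of the 16106 genes with a mean normalised count of at least 5 in the 4 libraries (94.5%). The median size of the log2 fold change over all genes was 0.09, and the median over signed values was -0.002, with 10036 genes below 0 (50.6%). The median distance from a log2 fold change to the edge of its interval was 0.307 in genes with a mean of at least 5 and 0.672 in the 3747 genes below that, so differences in low genes were seen less precisely.

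**Figure D1:**
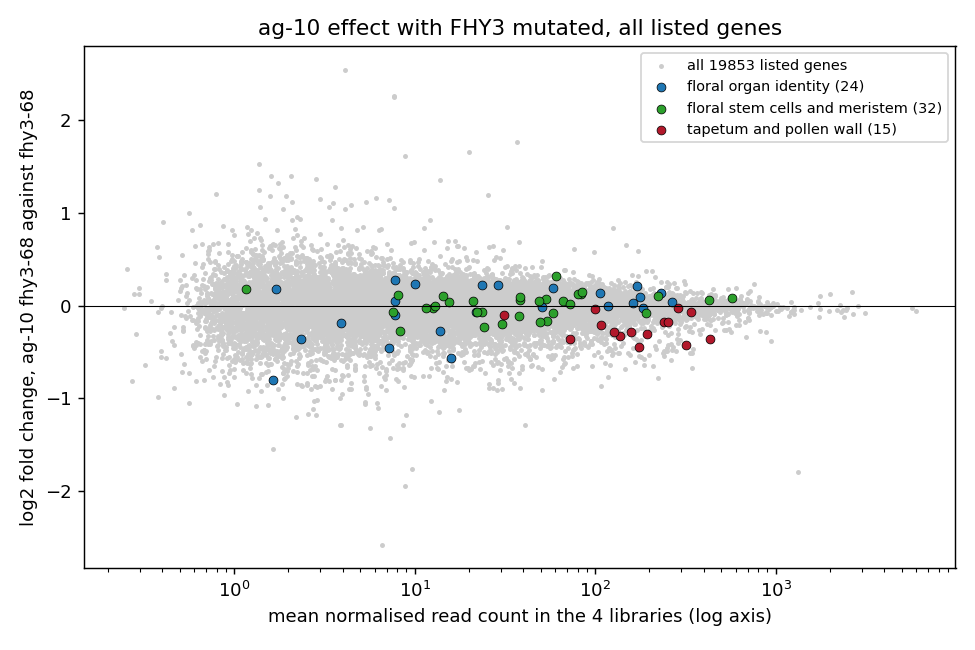
Log2 fold change of ag-10 fhy3-68 against fhy3-68 for each of the 19853 listed genes, against the mean normalised read count in the 4 libraries on a log axis. Each grey point is a gene, and coloured points mark 24 floral organ identity genes, 32 floral stem cell and meristem genes and 15 tapetum and pollen wall genes; the median of all genes is -0.002, the first 2 lists lie on both sides of 0, and all 15 tapetum and pollen wall genes lie below it.

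Among genes whose libraries did not overlap between the genotypes and whose mean was at least 5, the 10 lower ones with the smallest unadjusted p were RHS14, LBD2, AT1G44224, AT2G26440, AT1G47980, SHT, AT5G07230, EXLA1, IRT1 and KCS15, and none passed the limma test (adjusted p = 0.9997 for each). Since these were ranked on this comparison, their values are a description. RHS14, which is annotated as a root hair specific gene, stood at 54.60 and 45.60 in fhy3-68 but at 24.54 and 28.93 in ag-10 fhy3-68, after 103.03 and 87.60 in Ler and 62.91 and 61.96 in ag-10. The double mutant held the lowest pair of the 4 genotypes, and no library of another genotype reached it. Its log2 fold change against fhy3-68 was -0.89 (SE 0.131, 95% interval -1.20 to -0.59). LBD2, of the LOB-domain family of transcription factors, showed the same order of genotypes, with 36.85 and 30.47 in fhy3-68, then 17.81 and 18.05 in the double mutant, against 70.81 and 52.21 in Ler and 43.09 and 41.05 in ag-10. Its log2 fold change was -0.88 (SE 0.156). In these bulk tissues, fewer cells of a type and less RNA per cell cannot be told apart.

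SHT encodes a spermidine hydroxycinnamoyl transferase of the tapetum, the anther layer that feeds the pollen. Its levels were 108.44 and 105.97 in fhy3-68, then 75.92 and 84.76 in the double mutant, a log2 fold change of -0.42 (SE 0.089). AT5G07230, a lipid-transfer protein gene that also stands in the tapetum list described further on, had 210.94 and 193.13 in fhy3-68 but 141.91 and 154.87 in the double mutant. Both genes were lower in each double mutant library than in each of the 6 other libraries. KCS15, a ketoacyl-CoA synthase of the family that elongates very long fatty acids, went from 95.86 and 84.07 to 60.49 and 70.95, and AT1G47980, annotated as a desiccation-like protein, from 302.53 and 270.42 to 189.08 and 203.41. For RHS14, LBD2, AT1G47980, SHT, AT5G07230 and KCS15 the means stood, from highest to lowest, in the order Ler, ag-10, fhy3-68 and double mutant.

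The other lower genes had other orders. AT1G44224, of the ECA1 gametogenesis related family, stood at 68.66 and 70.67 in fhy3-68, then 52.94 and 49.37 in the double mutant, beside 61.31 and 63.24 in Ler and 49.51 and 48.48 in ag-10. AT2G26440, of the superfamily of invertase and pectin methylesterase inhibitors, had 43.56 and 40.12 in fhy3-68 but 28.41 and 30.42 in the double mutant, and here ag-10 (50.57 and 53.15) overlapped with Ler (51.73 and 48.48). EXLA1, an expansin-like gene, was at 28.39 and 26.58 in fhy3-68, then 18.62 and 17.09 in the double mutant, all above the 8.11 to 10.93 of the ag-10 and Ler libraries. The root iron transporter gene IRT1 was at 9.93 and 8.86 in fhy3-68 but 5.84 and 5.56 in the double mutant, with a log2 fold change of -0.67 (SE 0.151). SHT, EXLA1 and KCS15 overlap another gene model in the reference annotation, and reads of the overlapping models may not have been told apart.

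**Figure D2:**
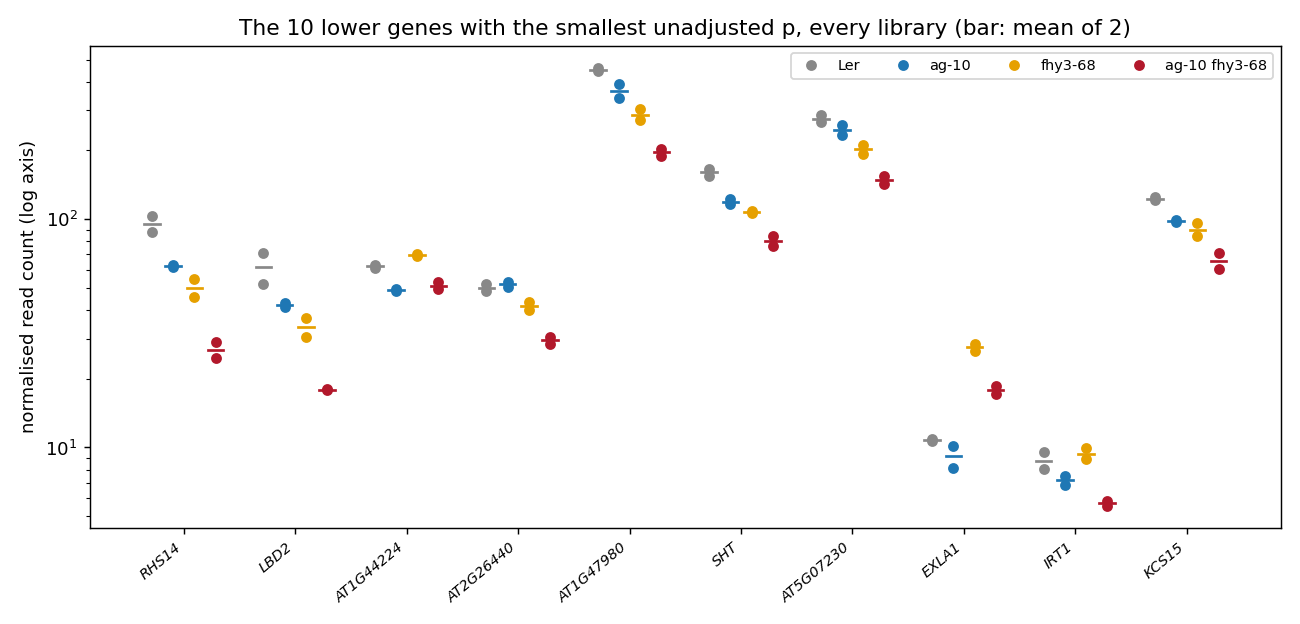
Normalised read counts on a log axis of the 10 lower genes with the smallest unadjusted p among genes with a mean of at least 5 whose libraries do not overlap, in each of the 8 libraries. Points are single libraries, coloured by genotype, and each bar is the mean of the 2 libraries of a genotype; in each gene both double mutant libraries lie below both fhy3-68 libraries, as the ranking required, and RHS14 stands at 103.03 and 87.60 in Ler but at 24.54 and 28.93 in the double mutant.

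The 10 higher genes ranked in the same way had a median log2 fold change of 0.44, beside -0.52 for the lower ones, and again none passed the limma test. AT5G61910, a gene with a DCD domain, stood at 30.27 and 30.69 in fhy3-68, then at 41.05 and 41.54 in ag-10 fhy3-68, a log2 fold change of 0.43 (SE 0.084). It also stood higher in ag-10 (38.16 and 40.90) than in Ler (30.01 and 30.39), so its level divided the libraries by the ag-10 allele in both backgrounds. FZL, a dynamin-like GTPase gene of the chloroplast, had 57.54 and 56.69 in fhy3-68 but 72.52 and 68.08 in the double mutant. XDH2, a xanthine dehydrogenase gene, had 14.68 and 16.86 and then 24.60 and 21.34. POLH, the gene of a DNA polymerase that copies past lesions, differed in the opposite sense in the 2 backgrounds, from 11.05 and 10.81 to 14.88 and 14.52 with FHY3 mutated and from 14.97 and 17.30 to 14.11 and 13.02 with FHY3 intact. The difference between the backgrounds for POLH was 0.65 on the log2 scale (SE 0.172) with a limma adjusted p of 1. The rest were EMB2729 (log2 fold change 0.35), CRR42 (0.44), AT5G35930 (0.41), AT1G22830 (0.47), AT1G20070 (1.14) and CEP1 (1.66). AT5G61910, EMB2729, AT1G20070 and CRR42 overlap other gene models.

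CEP1, the gene of a papain-like protease that acts in the programmed death of tapetal cells, had the largest fold change of the 20. It stood at 5.80 and 12.32 in fhy3-68, then at 44.72 and 17.27 in ag-10 fhy3-68, while the Ler and ag-10 libraries held between 0 and 0.15. The genotypes did not overlap, but the double mutant libraries differed more from each other than the lower of them did from fhy3-68. The log2 fold change was 1.66 (SE 0.481) with all libraries and 0.98 without ag-10 fhy3-68 replicate 1. For AT1G20070, whose 2 double mutant libraries were at 13.59 and 6.93 against 4.75 and 3.60 in fhy3-68, it went from 1.14 to 0.68 without the same library.

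Floral organ identity genes stood on both sides of their fhy3-68 levels, mostly by less than 2-fold. Of 24 measured members, 0 were called, 11 had a log2 fold change below 0 and 13 above, and 23 had a 95% interval within 2-fold. Libraries lay apart on the lower side in 6 members (25%, against 11.2% of all genes) and on the higher side in 7 (29.2%, against 11.1%). The median log2 fold change was 0.04, against -0.002 over all genes. AP1, the sepal identity and floral meristem gene, stood at 179.75 and 193.27 in fhy3-68, then at 171.81 and 195.75 in the double mutant, with an interval of -0.24 to 0.19 for the log2 fold change. PI, a petal and stamen identity gene, had 280.01 and 248.02 and then 270.50 and 272.56, and its partner AP3 had 202.55 and 142.70 and then 196.83 and 166.53. In all 3 the double mutant libraries overlapped with those of fhy3-68.

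The SEP genes, whose products join the organ identity complexes, all stood somewhat higher in the double mutant. SEP3 was at 222.96 and 217.98 in fhy3-68, then at 241.61 and 242.86 in ag-10 fhy3-68, with a log2 fold change of 0.14 (95% interval -0.04 to 0.31). For SEP1, SEP2 and SEP4 the log2 fold changes were 0.14, 0.21 and 0.22, the libraries did not overlap, and each interval included 0. SEP1 overlaps other gene models. FUL, which acts in the fruit wall and inflorescence, had the values 48.66 and 53.67 and then 50.77 and 50.75. LFY, the gene that gives flowers their identity, had 6.36 and 9.08 and then 7.54 and 8.25.

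The lower end of the list was held by UFO, STK and CAL. UFO, an F-box cofactor of LFY, stood at 1.75 and 2.67 in fhy3-68 but at 0.75 and 1.37 in the double mutant, with 62 reads in the first genotype and 34 in the second. Its log2 fold change of -0.81 had an interval of -1.48 to -0.13. On the log2(value + 0.5) scale UFO was the only member of the list not held within 2-fold. BOP1, at 2.52 and 2.88 in fhy3-68, had an interval down to -0.87 on that scale. The added 0.5 understates changes at such levels, so a 2-fold fall of BOP1 is not excluded. STK, an ovule identity gene, was at 21.25 and 16.93 in fhy3-68, then at 13.46 and 11.89 in the double mutant, against 15.40 and 16.98 in Ler and 17.28 and 16.62 in ag-10. Its log2 fold change was -0.57 (SE 0.142, 95% interval -0.90 to -0.23, limma adjusted p = 0.9997), and the difference from the effect in the Ler background was -0.63 (SE 0.201, limma adjusted p = 1). CAL, the close relative of AP1, had 8.53 and 8.21 and then 4.83 and 7.35. STK overlaps another gene model.

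**Figure D3:**
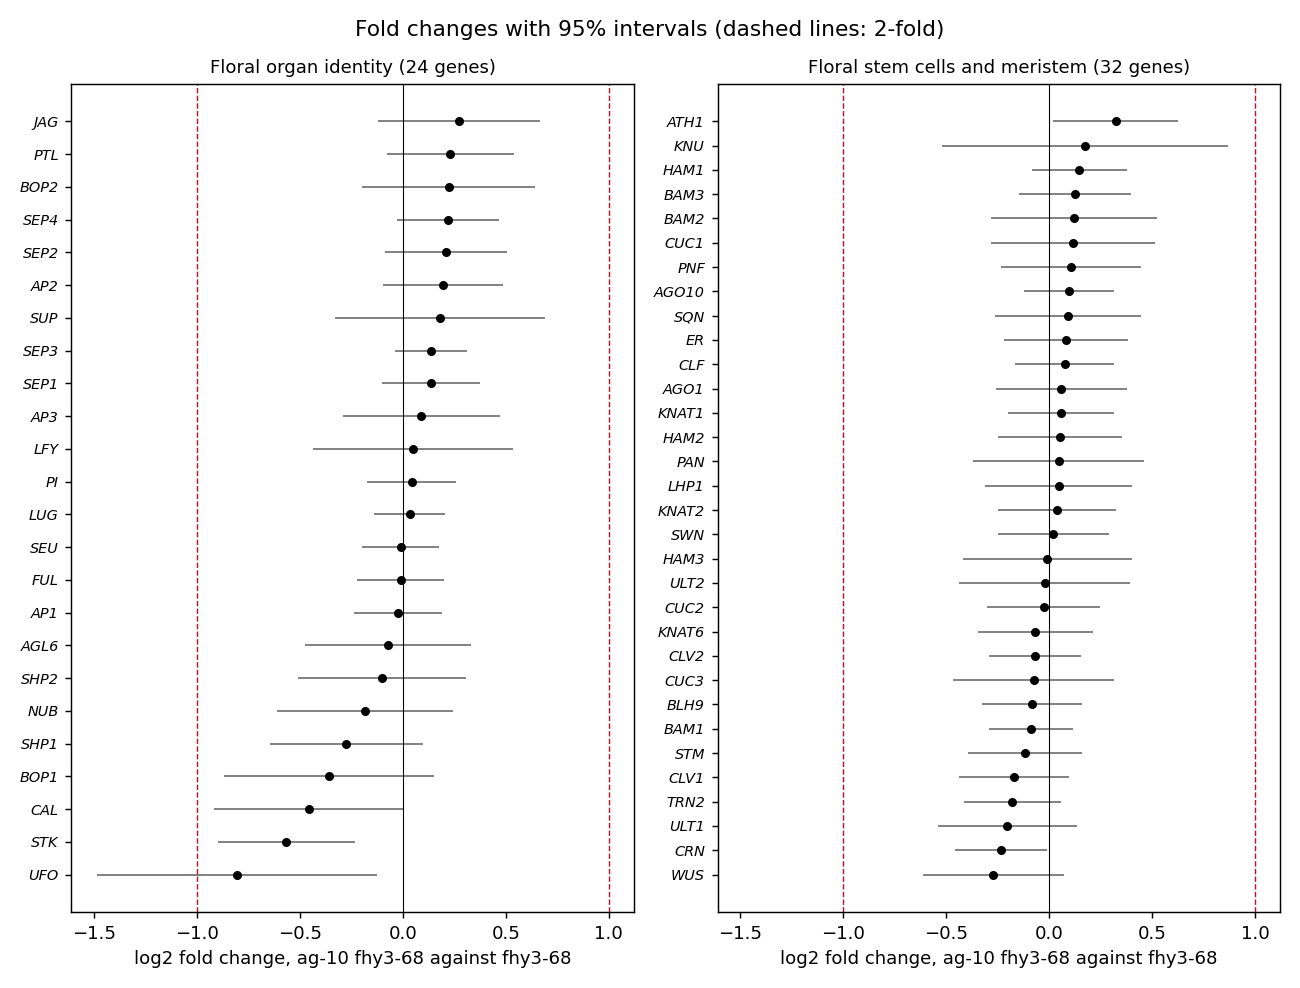
Log2 fold change of ag-10 fhy3-68 against fhy3-68 (points) with its 95% interval (lines) for 24 floral organ identity genes on the left and 32 floral stem cell and meristem genes on the right, ordered by fold change. Dashed lines mark 2-fold in each direction; 23 intervals on the left and all 32 on the right lie between them, and UFO reaches past the lower line.

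On the log2(value + 0.5) scale, all 32 measured genes of floral stem cells and the meristem had intervals within 2-fold, and 0 were called. The log2 fold changes ran from -0.27 to 0.32 with a median of 0.04, 14 of them below 0, and the libraries lay apart on the lower side in 6 members (18.8%, against 11.2% of all genes) and on the higher side in 2 (6.25%, against 11.1%). WUS was the lowest, at 9.79 and 8.50 in fhy3-68 but 8.02 and 6.99 in ag-10 fhy3-68, against 11.85 and 12.06 in Ler and 11.85 and 10.19 in ag-10. Its interval ran from -0.61 to 0.08. KNU, a zinc finger repressor of WUS, was barely read, at 1.12 and 1.01 and then 1.22 and 1.31. Its interval of -0.52 to 0.87 was the widest of the list. At such levels the added 0.5 understates changes, so a 2-fold rise of KNU is not excluded.

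The receptor genes of the CLV pathway differed little. CLV1 stood at 52.72 and 61.81 in fhy3-68, then at 46.90 and 54.93 in the double mutant, and CLV2 at 24.75 and 23.92 and then 23.52 and 22.83. CRN, which encodes the membrane partner of CLV2, had 26.08 and 26.22 in fhy3-68 but 21.34 and 23.07 in the double mutant, with no overlap and a log2 fold change of -0.23 (95% interval -0.45 to -0.01). CRN overlaps other gene models. STM, which keeps meristem cells undifferentiated, had 38.59 and 40.27 and then 37.58 and 35.15. ATH1, a homeodomain gene of the shoot meristem, was the highest, at 59.43 and 49.06 in fhy3-68, then 73.47 and 62.40 in the double mutant, a log2 fold change of 0.32 (95% interval 0.02 to 0.63). The median of the list was -0.08 without fhy3-68 replicate 1.

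Genes of the carpel and ovule stood on both sides of 0. Of 24 measured, 13 were below 0, and 20 had intervals within 2-fold, with a median of -0.04. The libraries lay apart lower in 7 (29.2%, against 11.2% of all genes) and higher in 6 (25%, against 11.1%). CRC, a YABBY gene of the carpel and nectary, was at 36.71 and 38.11 in fhy3-68 but at 30.92 and 33.11 in ag-10 fhy3-68, below the 47.40 and 46.58 of Ler and close to the 31.24 and 36.69 of ag-10. Its log2 fold change was -0.22 with FHY3 mutated and -0.47 with FHY3 intact, and the difference of 0.25 had a 95% interval of -0.09 to 0.58. CRC overlaps another gene model. INO, a YABBY gene of the outer ovule integument, had 6.50 and 5.26 and then 4.28 and 3.65. Genes of organ polarity had a median of 0.07 with all 12 intervals within 2-fold, and 8 of the 12 were above 0. Their libraries lay apart higher in 5 (41.7%, against 11.1% of all genes) and lower in 1 (8.33%, against 11.2%). Floral transition genes had a median of 0.05 with 11 of 12 intervals within 2-fold. Of these, 2 lay apart lower (16.7%) and 2 higher (16.7%).

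The tapetum and pollen wall genes formed the list that stood lowest among those of the flower, though 0 of 15 passed the test. All 15 had a log2 fold change below 0, where 50.6% of all genes did, and the libraries lay apart on the lower side in 7 (46.7%), against 11.2% of all genes. The median was -0.29 and each interval lay within 2-fold. MS2, a fatty acyl reductase gene of the pollen wall, stood at 370.42 and 357.52 in fhy3-68, then at 225.78 and 324.62 in ag-10 fhy3-68, against 596.25 and 603.97 in Ler and 455.05 and 515.31 in ag-10. CYP703A2, which hydroxylates fatty acids for sporopollenin, had 85.79 and 77.94 in fhy3-68 but 56.21 and 72.26 in the double mutant, against 156.39 and 132.35 in Ler. Of the genes that act beside them, CCRL6, a polyketide reductase, had a log2 fold change of -0.33 and ABCG26, a transporter of wall precursors, one of -0.29, while LAP6, a polyketide synthase, was at -0.02 and ACOS5, an acyl-CoA synthetase, at -0.07. ABCG26 overlaps another gene model.

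This lower level rested largely on 1 library. The summed level of the 15 genes was 3077.52 and 3358.91 in fhy3-68, then 2307.46 and 3190.11 in ag-10 fhy3-68, against 4983.57 and 4498.28 in Ler and 3894.47 and 3987.34 in ag-10. In the double mutant 13 of the 15 genes were below both fhy3-68 libraries in replicate 1 and 8 in replicate 2. Without ag-10 fhy3-68 replicate 1 the median was -0.05 and 9 of 15 members were below 0, and without replicate 2 it was -0.49. Cell division genes, which mark growing tissue, had a summed level of 1449.73 and 1208.36 in fhy3-68, then 1229.73 and 1313.47 in the double mutant, and their part in the result was not tested.

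**Figure D4:**
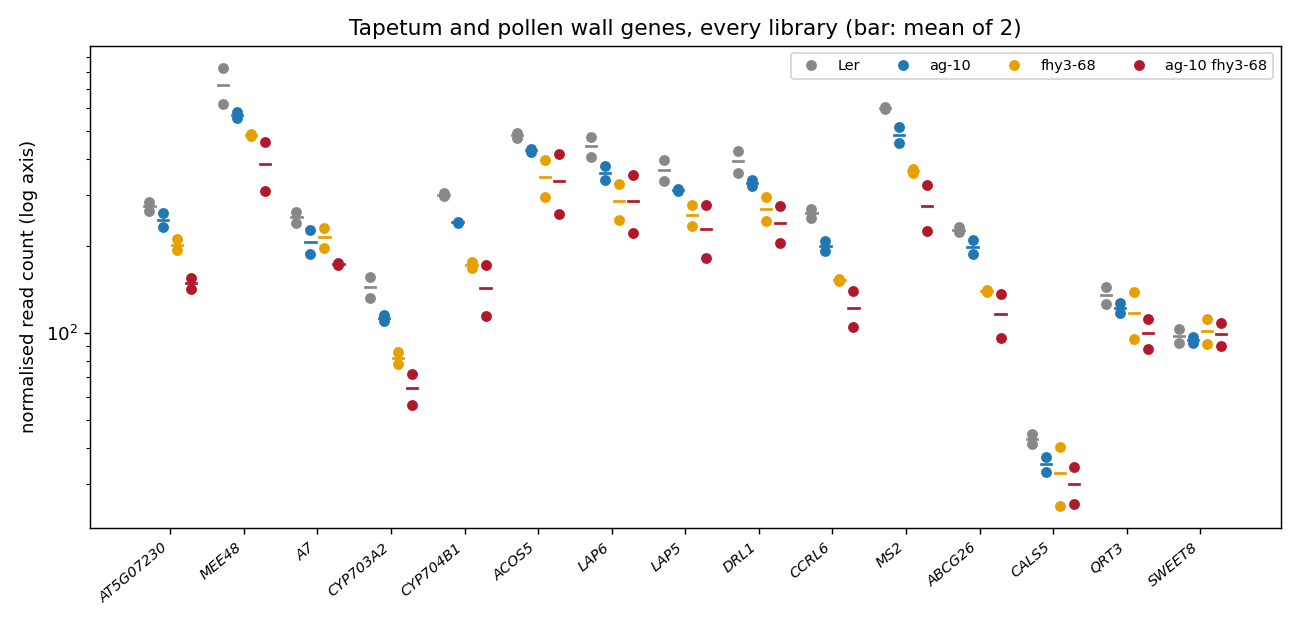
Normalised read counts on a log axis of the 15 tapetum and pollen wall genes in each of the 8 libraries. Points are single libraries, coloured by genotype, and bars are the means of 2 libraries; the 2 double mutant points spread widely in most genes, as in MS2 with 225.78 and 324.62, and both lie below both fhy3-68 points in 7 genes.

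Regulators of stamens and anthers lay nearer to 0. Of 16 stamen and anther regulators, 9 were below 0, 3 lay apart lower (18.8%, against 11.2% of all genes) and 2 higher (12.5%, against 11.1%), and 15 had intervals within 2-fold, with a median of -0.10 that was 0.05 without ag-10 fhy3-68 replicate 1. NZZ, a gene needed for the first sporogenous cells, stood at 19.23 and 17.29 in fhy3-68 but at 14.27 and 14.23 in the double mutant, and at 25.26 and 28.17 in Ler against 19.54 and 22.82 in ag-10. Its log2 fold changes were -0.35 (95% interval -0.63 to -0.06) and -0.33 in the 2 backgrounds, with no overlap in either. AMS, a regulator of tapetal genes, overlapped between the genotypes, at 168.99 and 199.47 and then 155.84 and 188.22. AMS overlaps other gene models. Meiosis genes had a median of -0.05, with 0 of 17 called, and the median was 0.16 without ag-10 fhy3-68 replicate 1 and -0.19 without ag-10 fhy3-68 replicate 2.

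The same tapetum genes stood low in ag-10 against Ler, where libraries are not shared with the comparison. There, too, all 15 were below 0, against 50.9% of all genes, with a median of -0.29, and the libraries lay apart on the lower side in 13, against 17.3% of the genes with a mean of at least 5, while 0 passed the limma test. In 7 of the 15 members (46.7%) the libraries lay apart on the lower side in both backgrounds, against 2.74% of all genes. This count is a description, since the list was chosen with earlier results of these data known and its genes are not independent replicates. In the double mutant the lower level rested largely on the library with the lower summed level. Without that library, 9 of the 15 members were below 0 with FHY3 mutated. Of the 10 lower genes named above, 9 were below 0 in ag-10 against Ler with a median of -0.32, and AT2G26440 was the exception. Of the 10 higher genes, 7 were above 0 there with a median of 0.09.

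Over the whole table the 2 effects of ag-10 were nearly uncorrelated. Across all 19853 genes, which are not independent replicates, the log2 fold changes in the 2 backgrounds had a Pearson correlation of 0.02 and a Spearman correlation of 0.06. With FHY3 mutated the median size of a log2 fold change was 0.09, and the median distance to the edge of its interval was 0.346. Noise of this size lowers a correlation, so these values cannot show whether the effects differ between the backgrounds. Of the 1732 genes with a mean of at least 5 that lay apart on the lower side in the double mutant, 24.4% also lay apart on the lower side in ag-10 against Ler, where 17.3% of all genes of that level did. Of the 1767 that lay apart on the higher side, 18.7% also lay apart higher there, against 14.8%. In ag-10 against Ler, limma called 1 gene of 19853 (0.00504%), QQS, and 357 were at an unadjusted p under 0.05 (1.8%), on the higher side in 0.72% of all genes and on the lower side in 1.08%. By limma, the difference between the backgrounds was called for QQS alone (0.00504%), with 241 genes at an unadjusted p under 0.05 (1.21%), 0.514% above 0 and 0.7% below.

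QQS, a gene known in Arabidopsis for its effect on starch, was at 0.14 and 0.32 in Ler and at 196.42 and 207.18 in ag-10. With FHY3 mutated it was already at 101.17 and 136.36, and the double mutant at 164.34 and 100.30 overlapped with that, giving a log2 fold change of 0.13 (95% interval -0.45 to 0.71). The difference between the effects was -8.00 on the log2 scale (SE 0.351, limma adjusted p = 0.000776).

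By their median, genes of the FHY3 pathway stood in the double mutant close to where fhy3-68 had them. Of 16, 0 were called, with a median of -0.001 and 12 intervals within 2-fold. With a library left out the median lay between -0.151 and 0.141. FHY1, which carries phytochrome A into the nucleus, was at 1.61 and 0.22 in fhy3-68, then 0.68 and 0.24 in ag-10 fhy3-68, against 13.34 and 16.50 in Ler. ARC5, a chloroplast division gene, was at 13.77 and 7.85 and then 8.70 and 7.65, against 75.43 and 72.76 in Ler. FAR1, the closest relative of FHY3, was the single member whose libraries lay apart, at 56.07 and 60.80 and then 66.06 and 65.81. Its interval was -0.01 to 0.36. Members apart on the higher side were thus 6.25% of the list, against 11.1% of all genes, and 0 lay apart lower, against 11.2%.

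Hormone lists differed in how tightly they were held. Auxin genes had a median of 0.05 with 18 of 20 intervals within 2-fold, and cytokinin genes a median of 0.10 with 12 of 14. The cytokinin median was -0.02 without ag-10 fhy3-68 replicate 1 and 0.22 without fhy3-68 replicate 1. IAA2, an early auxin response gene, was at 34.05 and 36.16 in fhy3-68 but at 20.19 and 25.82 in ag-10 fhy3-68, a log2 fold change of -0.61 (SE 0.149), while Ler and ag-10 held between 9.24 and 10.95. Of 24 jasmonate genes, 22 were below 0 and 7 lay apart on the lower side (29.2%, against 11.2% of all genes), with a median of -0.37, but only 10 intervals lay within 2-fold. JAR1, which conjugates jasmonate to isoleucine, was at 121.93 and 104.31 and then 89.65 and 91.93, with a log2 fold change of -0.31 (95% interval -0.53 to -0.09). The median of the jasmonate list was -0.13 without fhy3-68 replicate 1, -0.59 without fhy3-68 replicate 2 and -0.20 without ag-10 fhy3-68 replicate 2.

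Rapid stress genes, which respond within minutes to touch, cold or wounding, had all 16 members below 0, 7 of them with libraries apart (43.8%, against 11.2% of all genes), a median of -0.48 and 0 intervals within 2-fold. Their summed level was 1644.36 and 1941.51 in fhy3-68, then 870.91 and 1685.76 in ag-10 fhy3-68, so the double mutant replicates lay further apart than the genotypes. The median was -0.15 without ag-10 fhy3-68 replicate 1 and -0.95 without replicate 2. TCH4, a touch-induced cell wall enzyme gene, had 367.97 and 458.58 in fhy3-68 but 176.57 and 373.22 in the double mutant. Salicylic acid genes had a median of -0.23, or 0.01 without ag-10 fhy3-68 replicate 1, with 8 of 20 intervals within 2-fold. PR1, a defence marker, was barely read, at 0.91 and 1.37 and then 2.92 and 3.11.

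Other lists differed by replicate more than by genotype. Each of 17 genes of dark and sugar starvation was higher in double mutant replicate 1 than in fhy3-68 replicate 1, and each was lower in double mutant replicate 2 than in fhy3-68 replicate 2. SEN1, a senescence and dark-induced gene, shows the pattern, with 17.13 and 190.75 in fhy3-68, then 57.16 and 129.11 in ag-10 fhy3-68. In this list 0 members lay apart, against 22.2% of all genes. The median of 0.05 became -0.70 without fhy3-68 replicate 1 and 0.65 without fhy3-68 replicate 2. Cell division genes had the opposite pattern, with 22 of 24 lower in replicate 1 of the double mutant than in replicate 1 of fhy3-68 and 21 of 24 higher in replicate 2, and a median of -0.07, or 0.02 without fhy3-68 replicate 1. Photosynthesis genes had 25 of 26 members below 0 with a median of -0.05, which was 0.03 without ag-10 fhy3-68 replicate 2, and 25 intervals lay within 2-fold. Heat shock genes had a median of -0.10 with 8 of 10 members below 0, and the median was 0.20 without fhy3-68 replicate 1 and -0.43 without fhy3-68 replicate 2. The list of circadian clock genes had a median of 0.06 with 13 of 20 above 0, and -0.08 without fhy3-68 replicate 1.

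**Figure D5:**
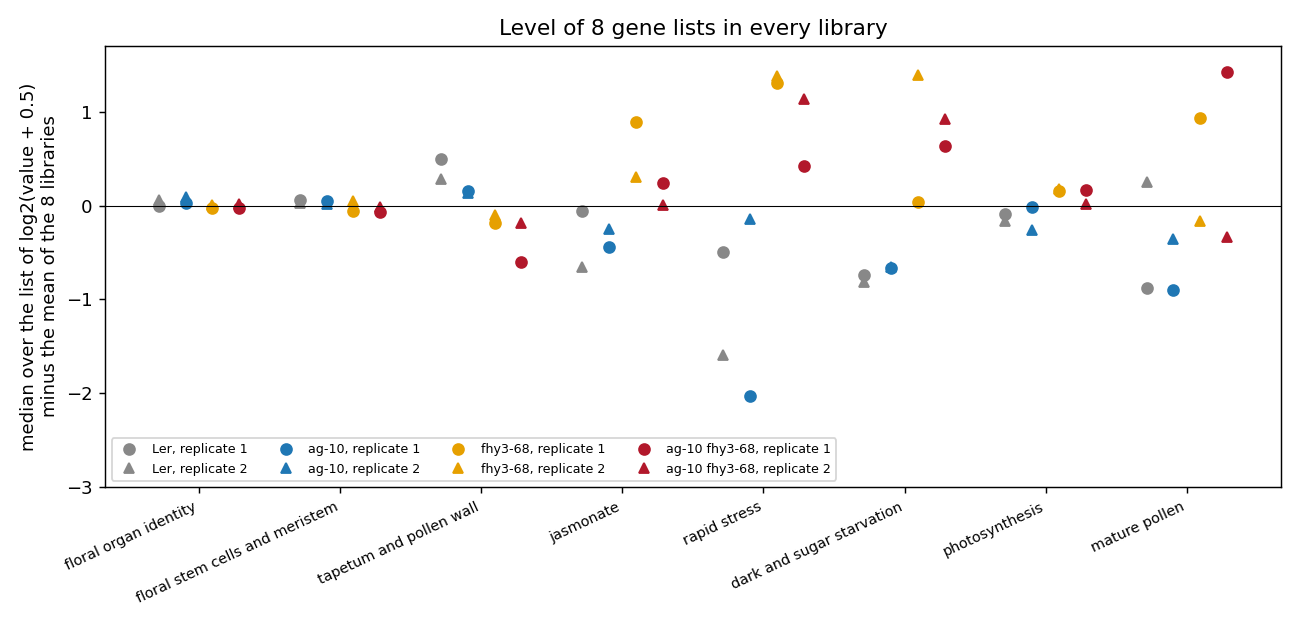
Level of 8 gene lists in each of the 8 libraries: the median over a list's genes of log2(value + 0.5), after the mean of the 8 libraries was subtracted from each gene. Colour gives the genotype and the shape the replicate; organ identity and meristem lists lie within 0.09 of 0 in each library, while the fhy3-68 replicates of the dark and sugar starvation list stand at 0.04 and 1.39 and the double mutant replicates of the rapid stress list at 0.42 and 1.13.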

How the data were processed

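Transcripts were measured by RNA sequencing in 8 inflorescence libraries, 2 per genotype. The deposited values are a normalised signal, which the values show to be gene read counts divided by a library size factor: 100% came out within 0.1 read of a whole read, and these recovered reads were used in alternative tests. The submitters' processing notes list, with no role, HTSeq 0.6.1p1, TopHat2 2.0.14, edgeR 3.10.0 and CASAVA 1.8. For the genome build, annotation and strand use, the sources used here give nothing. Each of the 19853 listed genes reached a value of 1 in at least 2 libraries. RefSeq's TAIR10.1 annotation matched 99.79% of identifiers and served for names, neighbours and overlapping models only.

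The main test was limma's trend method (version 3.58.1 under R 4.3.3) on log2(value + 0.5), 1 coefficient per genotype, Benjamini-Hochberg adjustment over all genes, two-sided; it was tested on simulated data. Fold changes are on the log2(value + 0.5) scale and understate those of low genes. Confidence intervals at 95% come from the same fit. Alternatives were edgeR 4.0.16 and DESeq2 1.42.0 on recovered reads, pseudocounts of 0.1 and 2, a mean of at least 5, rescaled libraries, a replicate block, library weights, the 4 libraries alone, and each library left out.

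Named genes were those called, then the 10 in each direction with the smallest unadjusted p among genes with a mean of at least 5 and no overlap between the genotypes, then up to 3 members of each list; AG was not analysed here, and further list members were named after their values were seen. The members and the 21 gene lists (369 of 395 entries listed) were chosen with earlier results of these data known. P-values measure the spread between 2 libraries per genotype. A planned description of promoter motifs was not run, since the build of the files is not given.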

Additional observations from a re-analysis of the deposited data

Results flagged for a closer look

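QQS was singled out because the effect of ag-10 differed between the backgrounds in a test of the difference itself. The effect in fhy3-68 minus the effect in Ler was -8.0 on the log2 scale (limma adjusted p = 0.000776). Its level rested on 3340 recovered reads in fhy3-68 and 4096 in ag-10 fhy3-68, while the Ler libraries stood at 0.14 and 0.32, so the size of the log2 difference depends on the pseudocount of 0.5. All 6 mutant libraries stood above 100, and those of fhy3-68 and the double mutant overlapped. Whether the lines differ from Ler at this gene other than by the named alleles was not tested.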

How the results depend on the processing

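With 2 libraries per genotype, limma called 0 genes in ag-10 fhy3-68 against fhy3-68 in each alternative run with it, also with each library left out, while DESeq2 called 1. The number at an unadjusted p under 0.05 ran from 150 with library weights to 2621 without fhy3-68 replicate 2. In ag-10 against Ler the count of called genes was 1, 23 with DESeq2, 2 with a pseudocount of 0.1, and 1 to 4 with a library left out; for the difference between the backgrounds it was 1, 3 with DESeq2, and 1 to 3 with a library left out, the highest of each without ag-10 replicate 1. Leaving out 1 library puts the spread of the lone sample at that of the other genotypes.

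Of the list medians, rescaling moved floral organ identity to 0.068, organ polarity to 0.102 and auxin to 0.083, edgeR put auxin at 0.041 and DESeq2 at 0.045, and a mean of at least 5 put carpel and ovule at 0.02. With a library left out, the medians ran from 0.007 to 0.05 for floral organ identity, -0.082 to 0.043 for floral stem cells and meristem, -0.114 to 0.047 for floral transition, 0.038 to 0.099 for organ polarity, -0.007 to 0.053 for auxin, -0.951 to -0.147 for rapid stress and -0.079 to 0.182 for the circadian clock, and 9 to 15 tapetum genes were below 0. The cause was not tested. Of 167 single-gene results followed, with QQS entered once for each comparison, 105 kept their sign in every setting that held the gene. The 20 ranked genes were among them, and RHS14 alone crossed the threshold.

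Replicate numbers are shared by the genotypes, but only 2 numbers exist and the labels do not say that they mark a batch. Deviations of same-numbered libraries correlated at 0.48 between fhy3-68 and ag-10 fhy3-68. Those of ag-10 correlated at 0.35 with ag-10 fhy3-68 and 0.21 with fhy3-68. Those of Ler correlated at 0.03 with ag-10, 0.13 with fhy3-68 and -0.07 with ag-10 fhy3-68. With the replicate number as a block, limma called 0 genes in ag-10 fhy3-68 against fhy3-68 (592 at an unadjusted p under 0.05). It called 1 in ag-10 against Ler and 1 for the difference between the backgrounds.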

Other observations

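A run of 21 neighbouring listed genes on chromosome 2, from AT2G43900 to AT2G44110, was noticed after the values were seen. Relative to the Ler mean, the median log2 level of the run was 0.95 and 0.96 for the ag-10 libraries. It was 0.63 and 0.55 for fhy3-68, then 0.96 and 0.61 for the double mutant. All 21 genes were above 0 in ag-10 against Ler, with log2 fold changes between 0.71 and 1.42. In all 21 the libraries lay apart on the higher side, against 15.1% of all genes. The ends of the run were set after these values were seen, so its counts are a description. The listed neighbours on either side were at 0.32 and 0.09. In ag-10 fhy3-68 against fhy3-68, 19 of the 21 were above 0 with a median of 0.21. The libraries lay apart on the higher side in 9, where 11.1% of all genes did. LARP6b, a gene of the La-related RNA-binding family within the run, stood at 183.07 and 189.47 for Ler and 432.06 and 482.14 for ag-10. With FHY3 mutated it stood at 463.06 and 551.44, and with ag-10 added at 639.48 and 515.18. For the difference between the backgrounds DESeq2 called LARP6b, QQS and AT3G43290, each below 0, while limma called QQS alone. The run stood above Ler in all 6 mutant libraries, and whether the mutant lines carry other differences from Ler in this region was not tested.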
